A study of Mus musculus with 32 samples.

Results

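The Toll-like receptor family was followed through 32 RNA-seq libraries of mouse lumbar spinal cord and of microglia sorted from it. The members were the 10 genes Tlr1, Tlr2, Tlr3, Tlr4, Tlr5, Tlr6, Tlr7, Tlr8, Tlr9 and Tlr13, found by Ensembl identifier in 3 tables of 74016 to 74021 genes, and each table held all 10. All SOD1G93A mice here carry a human SOD1 transgene with the G93A mutation, a model of amyotrophic lateral sclerosis. LAG-3, encoded by Lag3, is an immune checkpoint receptor. The LAG-3-sorted table compared CD11b+/CD45int microglia of P140 SOD1G93A mice gated as LAG-3-low (5 libraries) and LAG-3-high (5 libraries) with microglia of non-transgenic WT mice (4 libraries), whose age the labels did not give. The stage table held microglia of SOD1G93A/LAG-3+/+ mice (G93A) and SOD1G93A/LAG-3-/- mice (G93AKO), which carry a germline disruption of Lag3 and so lack it in every cell type, at P120 and P140 with 3 libraries in each group. The third table held whole lumbar cord at P140 from SOD1G93A/LAG-3+/+ (G93A, 3 libraries) and SOD1G93A/LAG-3-/- mice (G93ALAG3KO, 3 libraries). Library totals were 9403286 to 49512341 counts, and 17031 to 27911 genes had at least 1 count in a library. The labels did not say whether replicates were separate animals, so the p-values measure only the spread between these libraries.

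Toll-like receptors are pattern recognition receptors of innate immunity, used by microglia and other myeloid cells to detect microbial products and material released from damaged cells. The surface members bind lipids and proteins outside the cell: TLR2 pairs with TLR1 or TLR6 to bind lipopeptides, TLR4 binds lipopolysaccharide with its co-receptor MD-2, and TLR5 binds flagellin. The endosomal members bind nucleic acids after delivery by the chaperone UNC93B1: TLR3 binds double-stranded RNA, TLR7, TLR8 and TLR13 bind single-stranded RNA, and TLR9 binds DNA. Nearly all signal through the adaptor MyD88, whereas TLR3 uses TRIF and TLR4 uses both.

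On GRCm39 with the GENCODE vM39 annotation, all 10 are protein-coding genes, and the values count reads over all their exons. The surface members are Tlr1 (ENSMUSG00000044827, chr5:65082022-65090941, minus strand), Tlr2 (ENSMUSG00000027995, chr3:83743576-83749074, minus strand), Tlr4 (ENSMUSG00000039005, chr4:66745783-66849936, plus strand), Tlr5 (ENSMUSG00000079164, chr1:182782311-182805500, plus strand) and Tlr6 (ENSMUSG00000051498, chr5:65108704-65203497, minus strand). Tlr1 and Tlr6 are neighbouring close paralogs, so the split of their reads is uncertain. The endosomal members are Tlr3 (ENSMUSG00000031639, chr8:45848702-45864117, minus strand), Tlr7 (ENSMUSG00000044583, chrX:166086758-166113605, minus strand), Tlr8 (ENSMUSG00000040522, chrX:166024184-166047325, minus strand), Tlr9 (ENSMUSG00000045322, chr9:106099797-106104082, plus strand) and Tlr13 (ENSMUSG00000033777, chrX:105186810-105204533, plus strand). Tlr7 and Tlr8 lie close together on the X chromosome.

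The promoters of 3 members are shown because these genes took different courses in the data below: Tlr2 was higher in both LAG-3 fractions than in WT microglia, and Tlr3 and Tlr13 were lower at P140 than at P120 in G93A microglia. Each sequence is the 250 bases before the RefSeq start on the gene's own strand, with coordinates on GRCm38.p6 and not on the build used above: chr3:83841609-83841858 (minus strand) for Tlr2, chr8:45410381-45410630 (minus strand) for Tlr3 and chrX:106143025-106143274 (plus strand) for Tlr13. Capitals mark matches on either strand to an NF-kB site (GGG and CC with any 5 bases between), an ETS core of the kind bound by the myeloid factor PU.1 (GAGGAAG) or an interferon response element (GAAA repeated with any 2 bases between).
Tlr2: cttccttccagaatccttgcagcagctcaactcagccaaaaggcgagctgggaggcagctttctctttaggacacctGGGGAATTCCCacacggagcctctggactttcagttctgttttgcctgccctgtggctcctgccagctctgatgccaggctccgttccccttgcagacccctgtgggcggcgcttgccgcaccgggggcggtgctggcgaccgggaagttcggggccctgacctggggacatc
Tlr3: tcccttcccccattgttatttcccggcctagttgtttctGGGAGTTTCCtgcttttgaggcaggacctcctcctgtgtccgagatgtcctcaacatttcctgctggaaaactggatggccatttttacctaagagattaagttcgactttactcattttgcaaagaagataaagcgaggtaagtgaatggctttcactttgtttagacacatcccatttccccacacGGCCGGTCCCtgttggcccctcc
Tlr13: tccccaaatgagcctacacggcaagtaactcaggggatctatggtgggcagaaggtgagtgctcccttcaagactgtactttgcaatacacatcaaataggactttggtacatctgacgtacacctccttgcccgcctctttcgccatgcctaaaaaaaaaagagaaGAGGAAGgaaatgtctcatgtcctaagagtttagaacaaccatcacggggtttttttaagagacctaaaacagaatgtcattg
In Tlr2 the capitals are overlapping NF-kB matches, in Tlr3 they are separate NF-kB matches, and in Tlr13 they are an ETS core. Of the 8 members with a RefSeq entry, 4 had an NF-kB match (Tlr2, Tlr3, Tlr5 and Tlr6), 3 an ETS core (Tlr1, Tlr9 and Tlr13) and 1 an interferon response element (Tlr6). Among all 32841 promoters of this length the shares were 45.8%, 10.6% and 2.98%. These shares are per single promoter, whereas a member counted with a match at any of its start sites (10 sites for the 8 members). The counts and the shares are therefore not like for like. Tlr4 and Tlr7 had no entry. A match describes letters and not a bound site.

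Levels are given as CPM, which are counts scaled to the library total with TMM factors, and levels of different genes are set against each other only as CPM per kb of exon. In WT microglia the endosomal Tlr13 had the highest mean level at 43.1 CPM per kb, followed by Tlr7 at 32.1 and Tlr2 at 28.2. The order differed between WT libraries: Tlr7 stood above Tlr13 in replicates 1 and 4, and Tlr2 above Tlr7 in replicates 2 and 3. In LAG-3-high microglia Tlr2 led with a mean of 136 CPM per kb, before Tlr13 at 54.1 and Tlr7 at 42.2. Tlr1, Tlr4, Tlr6 and Tlr3 formed a middle tier there, with means of 26.4, 12.4, 9.42 and 9.36 CPM per kb. Tlr5, Tlr8 and Tlr9 were sparse in all microglia, with group means of at most 1.12 CPM per kb. Their counts came in some libraries of a group and not in others: Tlr5 had 0, 0, 277, 77 and 113 counts in the LAG-3-low libraries.

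In whole cord the order was another one. In P140 G93A cord the endosomal Tlr3 led with a mean of 8.61 CPM per kb, followed by Tlr2 at 5.55, Tlr7 at 4.31 and Tlr13 at 3.86. Tlr9 had 213, 139 and 183 counts in these cord libraries, against 0 to 114 counts in the sorted microglial libraries. The 3 tables were normalized separately, so levels were not tested between them.

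The first comparison asked how the family differed between both LAG-3 fractions and WT microglia. Lag3 itself averaged 4.60 CPM in WT microglia, 43.4 CPM in the LAG-3-low fraction and 169 CPM in the LAG-3-high fraction. Tlr2, the lipopeptide receptor, had the same order. It stood at 77.5, 221, 247 and 74.3 CPM in the WT libraries, at 374, 431, 540.2, 386 and 389.8 CPM in LAG-3-low libraries and at 790.1, 803, 717, 664 and 759 CPM in LAG-3-high libraries. No library of one group overlapped another group. Against WT, the log2 fold change of Tlr2 was 1.45 (standard error 0.33, edgeR adjusted p = 0.00919) in LAG-3-low microglia and 2.27 (standard error 0.34, edgeR adjusted p = 0.000432) in LAG-3-high microglia. With transcript length and GC content corrected for, the change in LAG-3-low microglia fell short of the minimum fold change (log2 fold change 0.85). Between the fractions Tlr2 differed by 0.82 (standard error 0.30, edgeR adjusted p = 0.214), which did not pass the test. In this table and in the cord a gene counted as called where its adjusted p was under 0.1 and its log2 fold change exceeded 1 in size.

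Tlr8, an RNA receptor next to Tlr7, was at 0 counts in all 4 WT libraries. LAG-3-high libraries held 92, 117, 121, 92 and 24 counts of it (mean 5.72 CPM) and LAG-3-low libraries 76, 114, 0, 27 and 93 counts (mean 3.34 CPM), so that 1 LAG-3-low library was also at 0. With WT set to 3 counts per library, the mean level was at least 29.6-fold higher in LAG-3-high microglia (edgeR adjusted p = 0.00495) and at least 17.3-fold higher in LAG-3-low microglia (edgeR adjusted p = 0.00922), or at least 11.4-fold without LAG-3-low replicate 2. Tlr5 ran the other way, with 0 counts in all 5 LAG-3-high libraries. It had 0, 153, 36 and 0 counts in the WT libraries, so the groups overlapped at 0. Its mean was at least 19.6-fold lower in the LAG-3-high fraction than in WT at 3 counts per library (edgeR adjusted p = 0.0534). Without WT replicate 2 that bound dropped to 3.46-fold. The call was lost without that library (edgeR adjusted p = 0.105) and when replicate numbers entered as a block (edgeR adjusted p = 0.207), and in a fit of these groups alone Tlr5 had too few counts to be tested.

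In all, 3 of the 9 members tested were called between LAG-3-high and WT microglia (Tlr2 and Tlr8 higher, Tlr5 lower), where 27% of all genes tested were called. Between LAG-3-low and WT microglia 2 of 9 were called (Tlr2 and Tlr8, both higher), where 21.9% of genes were called. Both shares were near the background, and both comparisons used the same WT libraries. Tlr9 was not tested in this table because its counts were too low.

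Between the LAG-3-high and the LAG-3-low fraction edgeR called 0 of the 9 members, where 3.49% of genes were called. At an unadjusted p under 0.05 there were 3 members (Tlr2, Tlr5 and Tlr7), and DESeq2 called 1, Tlr5. Tlr7, which binds single-stranded RNA, had the smallest adjusted p. Its level was 165, 110.4, 119, 144 and 157 CPM in LAG-3-low libraries and 222, 213, 231, 228 and 225 CPM in LAG-3-high libraries, with no overlap. Its log2 fold change was 0.68 (standard error 0.16, edgeR adjusted p = 0.0256), too small to be called, and it was 0.30 without TMM factors. The surface members Tlr1, Tlr4 and Tlr6 overlapped between the fractions, with log2 fold changes of 0.55 (standard error 1.09), 0.10 (standard error 0.48) and 0.48 (standard error 0.44). The endosomal Tlr3 and Tlr13 overlapped too, with -0.22 (standard error 0.29) and 0.24 (standard error 0.24), and without TMM factors Tlr4 and Tlr13 changed sign.

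**Figure D1:**
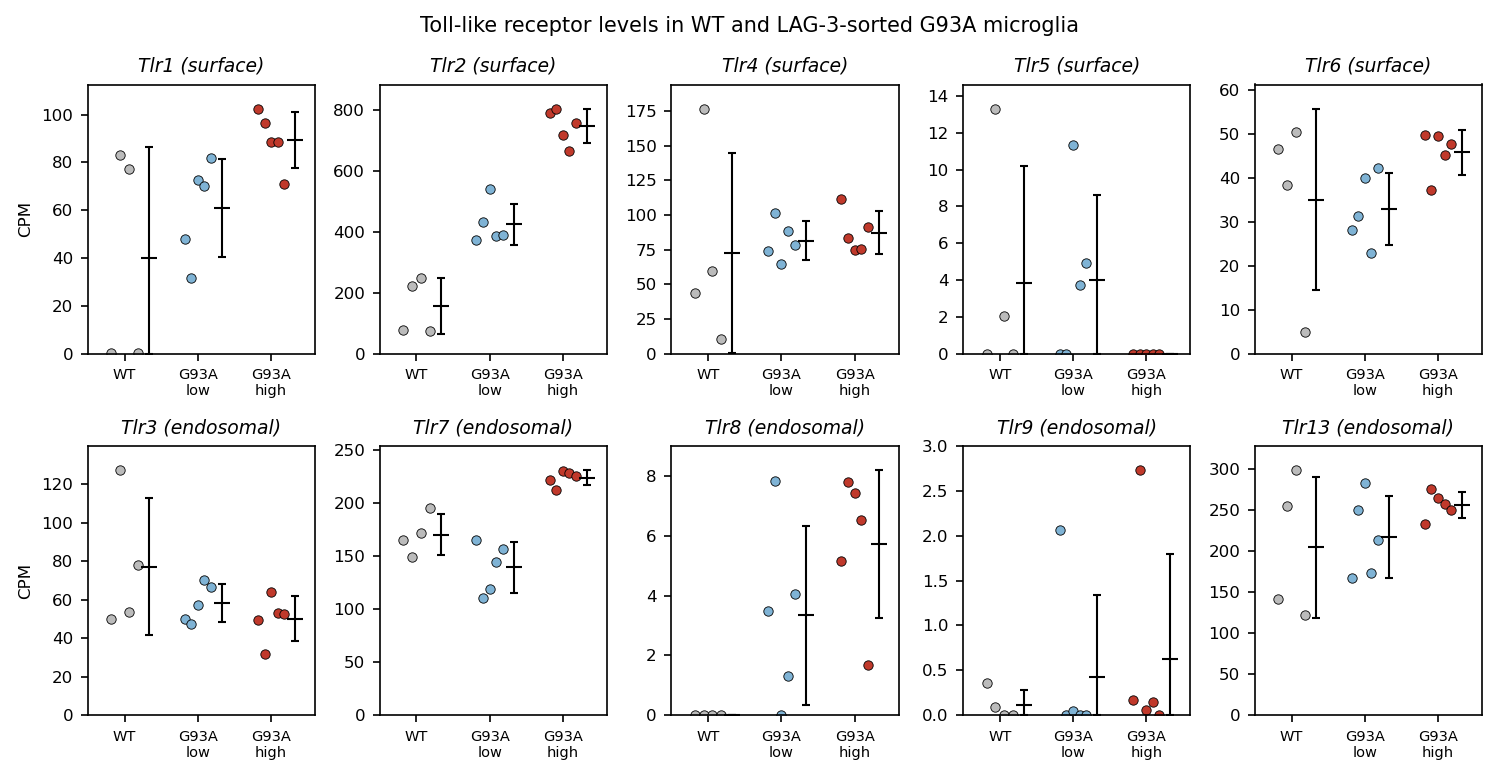
Level of each Toll-like receptor gene in CPM (linear axes from 0) in microglia of WT mice and of both LAG-3 fractions, with 1 point per library, the mean as a short bar and the SD as whiskers. Tlr2 steps up from WT (74.3 to 247 CPM) through LAG-3-low (374 to 540.2 CPM) to LAG-3-high libraries (664 to 803 CPM), Tlr8 is at 0 in the WT libraries and Tlr5 at 0 in the LAG-3-high libraries.

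Markers of other cells moved with these groups. The summed level of 10 neutrophil markers was 5959 to 70351 CPM in WT libraries, 22773 to 66224 CPM in LAG-3-low libraries and 3.47 to 9.64 CPM in LAG-3-high libraries, and that of 5 monocyte markers 20.3 to 2718, 1610 to 4608 and 0.200 to 6.45 CPM. Ly6c2 was at 0 in all LAG-3-high libraries, and no neutrophil marker was at 0 throughout a group. The 8 microglial markers, all found in each group, had sums of 28425 to 35663 CPM (WT), 16949 to 24116 CPM (LAG-3-low) and 24304 to 26647 CPM (LAG-3-high), and these ranges did not overlap. The part of microglia and of the other cells in the values of Tlr2, Tlr5, Tlr7 and Tlr8 was not tested. WT libraries also differed among themselves: Tlr1 stood at 0.0509, 83.03, 77.4 and 0.0633 CPM and Tlr4 at 43.5, 176, 59.5 and 10.8 CPM in WT replicates 1 to 4, and without WT replicate 2 Tlr4 was called higher in both fractions than in WT (log2 fold change 1.21 in LAG-3-high and 1.11 in LAG-3-low microglia). With the length and GC correction Tlr3 was called lower in both fractions than in WT (-1.18 and -1.06).

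The second comparison asked how disease stage and loss of LAG-3 moved the family in microglia. Lag3 averaged 59.3 CPM in P120 G93A and 26.04 CPM in P140 G93A microglia, against 0.291 and 0.172 CPM in the G93AKO groups. From P120 to P140, 5 of the 10 members fell in G93A microglia, 4 of them endosomal (Tlr3, Tlr7, Tlr9 and Tlr13) and 1 a surface member (Tlr4). In this comparison 15.5% of all genes tested were called lower and 27.4% either way, at an adjusted p under 0.1 with no minimum fold change in this table. The members not called were Tlr1, Tlr2, Tlr5, Tlr6 and Tlr8. The median log2 fold change of the endosomal members was -2.16 and that of the surface members -0.06, beside -0.22 over all genes tested.

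Tlr13, the receptor for bacterial ribosomal RNA, stood at 242, 269 and 301 CPM in P120 G93A libraries and at 83.8, 27.8 and 33.3 CPM in P140 G93A libraries. The log2 fold change was -2.49 (standard error 0.40, edgeR adjusted p = 0.00565). Tlr3, the receptor for double-stranded RNA, stood at 86.2, 70.4 and 79.2 CPM at P120 and at 36.9, 3.01 and 12.8 CPM at P140. In both genes every P140 library lay below every P120 library. The share of all genes without such overlap was not counted for any microglial comparison. The log2 fold change of Tlr3 was -2.16 (standard error 0.62, edgeR adjusted p = 0.0336), and the call was lost without P140 G93A replicate 3 (edgeR adjusted p = 0.111).

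Tlr7 was at 192, 186 and 222 CPM at P120 and at 116, 67.2 and 111 CPM at P140 in G93A microglia (log2 fold change -1.03, standard error 0.22, edgeR adjusted p = 0.0116). Tlr4, the lipopolysaccharide receptor, was at 78.8, 112 and 107 CPM at P120 and at 60.9, 25.1 and 44.2 CPM at P140 (log2 fold change -1.19, standard error 0.30, edgeR adjusted p = 0.0213). Neither gene overlapped between the stages. The DNA receptor gene Tlr9 had 46, 114 and 66 counts at P120 and 0, 2 and 0 counts at P140 (edgeR adjusted p = 0.0874). Its call was lost with no filter on low counts (edgeR adjusted p = 0.143), with transcript length and GC content corrected for (edgeR adjusted p = 0.178) and when any of these 6 libraries but P140 replicate 2 was left out (edgeR adjusted p up to 0.207).

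The lipopeptide receptor genes Tlr2, Tlr1 and Tlr6 did not pass the test. Tlr2 was at 517, 560.3 and 442 CPM at P120 and at 776, 455 and 962 CPM at P140 in G93A microglia (log2 fold change 0.53, 95% interval -0.07 to 1.13, edgeR adjusted p = 0.202). Tlr1 was at 75.8, 96.7 and 93.3 CPM and then at 87.4, 77.9 and 122 CPM (log2 fold change 0.11, 95% interval -0.48 to 0.70). Tlr6 was at 33.5, 65.9 and 37.3 CPM and then at 51.6, 28.9 and 50.8 CPM (log2 fold change -0.06, 95% interval -0.85 to 0.74). The stages overlapped in all 3 genes, the sign of Tlr1 turned without TMM factors (-0.38), and Tlr6 was at 1.06 with transcript length and GC content corrected for (edgeR adjusted p = 0.136). Tlr2 was called higher with that correction (log2 fold change 1.44, edgeR adjusted p = 0.0149) and without P140 G93A replicate 2 (0.78, edgeR adjusted p = 0.0623). Tlr5 and Tlr8 had few counts, with log2 fold changes of -3.16 (standard error 2.30) and -1.40 (standard error 2.71).

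**Figure D2:**
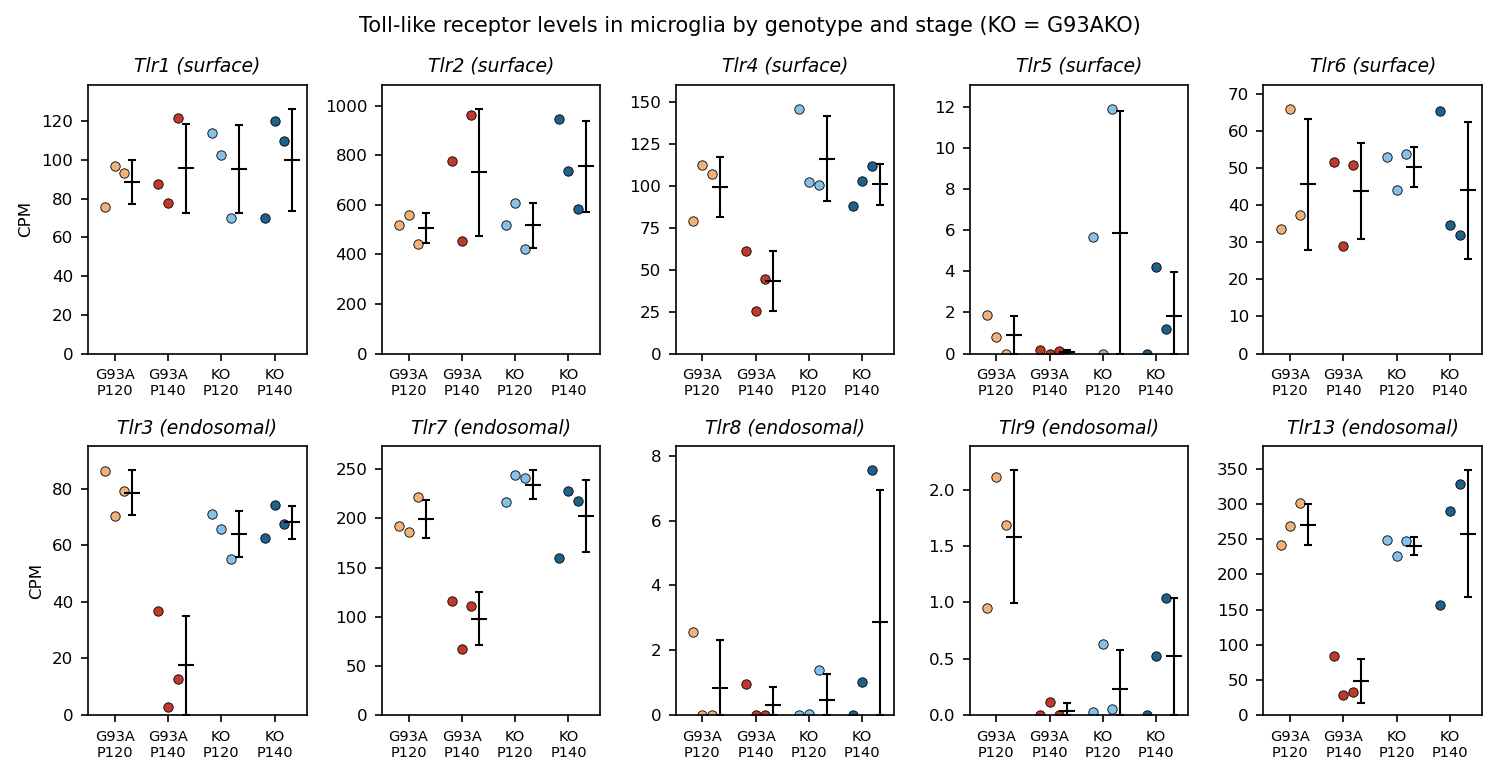
Level of each Toll-like receptor gene in CPM (linear axes from 0) in microglia of the 4 genotype and stage groups, with 1 point per library, the mean as a short bar and the SD as whiskers. In Tlr3, Tlr4, Tlr7 and Tlr13 the 3 P140 G93A libraries lie below the libraries of the other groups, and in Tlr1, Tlr2 and Tlr6 the groups overlap.

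From P120 to P140 in G93AKO microglia edgeR called 0 of the 10 members and 0% of all genes, with 0 members at an unadjusted p under 0.05 and 0 called by DESeq2. Tlr13 was at 249, 226 and 248 CPM at P120 and at 157, 289.7 and 328 CPM at P140 (log2 fold change 0.10, 95% interval -0.74 to 0.94). Tlr3 was at 71.3, 65.9 and 55.2 CPM and then at 62.7, 74.2 and 67.6 CPM (log2 fold change 0.09, 95% interval -1.21 to 1.39). The stages overlapped in both genes. Tlr7 was at 217, 244 and 241 CPM and then at 160.03, 228 and 218 CPM (log2 fold change -0.21, 95% interval -0.70 to 0.27). Tlr4 differed by -0.21 (95% interval -0.86 to 0.45), and Tlr2 by 0.55 (95% interval -0.05 to 1.15).

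The difference between these courses was tested as the interaction of genotype and stage. At an adjusted p under 0.1 edgeR called 0 of 10 members, where 0.171% of genes were called. At an unadjusted p under 0.05 there were 5 members (Tlr3, Tlr4, Tlr7, Tlr9 and Tlr13). Tlr13 had an interaction on the log2 scale of 2.59 (standard error 0.55, edgeR adjusted p = 0.176), and Tlr3 one of 2.25 (standard error 0.85, edgeR adjusted p = 0.289). DESeq2 called 2 members, Tlr13 (adjusted p = 0.00279) and Tlr9 (adjusted p = 0.0994). With edgeR, Tlr13 was called with no filter on low counts (adjusted p = 0.0474), without P140 G93A replicate 1 (adjusted p = 0.0257), as was Tlr3 (0.0560), and without P140 G93AKO replicate 1 (adjusted p = 0.0178), as was Tlr7 (0.0990).

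At P140, 4 of the 10 members were higher in G93AKO than in G93A microglia: Tlr3, Tlr7 and Tlr13 of the endosomal and Tlr4 of the surface members. Here 7.22% of genes were called higher and 10.2% either way. The log2 fold change of Tlr13 was 2.42 (standard error 0.40, edgeR adjusted p = 0.0206), that of Tlr3 1.95 (standard error 0.62, edgeR adjusted p = 0.0928), that of Tlr4 1.21 (standard error 0.30, edgeR adjusted p = 0.0532) and that of Tlr7 1.04 (standard error 0.22, edgeR adjusted p = 0.0353). In each of these genes the lowest P140 G93AKO library exceeded the highest P140 G93A library. The share of all genes without overlap was not counted here either, so this describes the libraries and adds nothing to the calls. Tlr2 differed by 0.05 (95% interval -0.55 to 0.65), Tlr1 by 0.06 (95% interval -0.53 to 0.65) and Tlr6 by 0.00 (95% interval -0.79 to 0.80), and the signs of these 3 turned under other scalings. This comparison shares the P140 G93A libraries with the comparison of stages.

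These 4 calls needed the spread of all 12 libraries. Fitted on the 6 P140 libraries alone, 0 members were called, with edgeR adjusted p of 0.207 for Tlr13, 0.224 for Tlr7, 0.234 for Tlr4 and 0.289 for Tlr3. Leaving out P140 G93AKO replicate 2 or replicate 3 ended the calls of Tlr3, Tlr4 and Tlr7 and left 1 member called, Tlr13, leaving out P140 G93A replicate 3 ended those of Tlr3 and Tlr4 and left 2, and leaving out P140 G93A replicate 2 ended that of Tlr4 (edgeR adjusted p up to 0.247). The call of Tlr3 was also lost when replicate numbers entered as a block (edgeR adjusted p = 0.110), with sex as a covariate (0.123), with no filter (0.135) and with the length and GC correction (0.138).

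At P120 edgeR called 0 of the 10 members between G93AKO and G93A, where 0.0107% of genes were called, with 0 members at an unadjusted p under 0.05 and 0 called by DESeq2. Tlr2 differed by 0.03 (95% interval -0.57 to 0.63), Tlr13 by -0.17 (95% interval -1.01 to 0.67) and Tlr3 by -0.29 (95% interval -1.59 to 1.01) on the log2 scale.

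**Figure D3:**
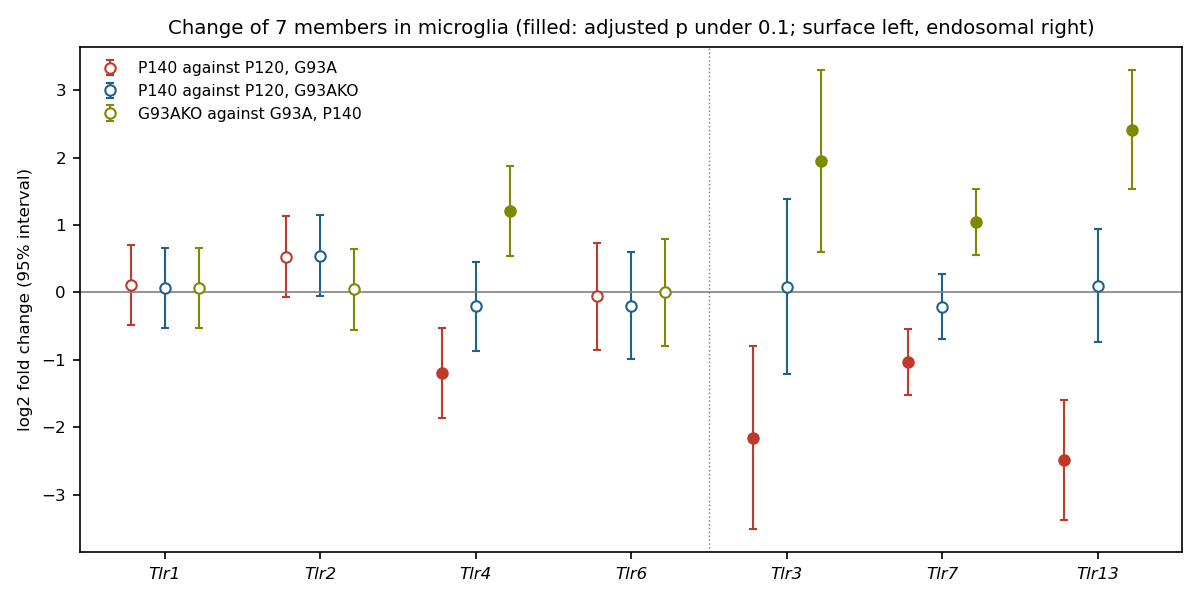
Log2 fold changes of 7 members, with 95% intervals, for P140 against P120 in G93A (red) and G93AKO (blue) and for G93AKO against G93A at P140 (green) in microglia, where filled points are called. Tlr3, Tlr4, Tlr7 and Tlr13 are filled below 0 for P140 against P120 in G93A (-2.49 to -1.03) and above 0 for G93AKO against G93A at P140 (1.04 to 2.42), and Tlr1, Tlr2 and Tlr6 have no filled point.

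Library complexity and other cells moved with these groups as well. P140 G93A libraries had 18896 to 20489 genes with at least 1 count, against 24136 to 24942 in P120 G93A, 23607 to 23890 in P120 G93AKO and 20260 to 23896 in P140 G93AKO libraries. The P140 G93AKO library with 20260 genes, replicate 1, also held the lowest Tlr13 and Tlr7 of that genotype (157 and 160.03 CPM). The neutrophil markers summed to 1741 to 2574 CPM in P120 G93A, 3.84 to 3479 in P140 G93A, 2.68 to 6.57 in P120 G93AKO and 4.02 to 4611 CPM in P140 G93AKO libraries. Camp, Lcn2, Cd177 and Retnlg were at 0 in all P120 G93AKO libraries. The 5 monocyte markers summed to 82.8 to 301 CPM in P120 G93A and 0 to 214 CPM in P140 G93A libraries. In G93AKO libraries they summed to 0.139 to 3.69 CPM at P120 and 7.61 to 494 CPM at P140. At P140, 1 monocyte marker was called higher in G93AKO than in G93A, where 7.22% of all genes were called higher. Of the neutrophil markers 0 were called there. The 8 microglial markers summed to 26458 to 29565 CPM in P120 G93A and 34080 to 40714 CPM in P140 G93A libraries. In G93AKO libraries they summed to 22568 to 30559 CPM at P120 and 25299 to 37657 CPM at P140. They did not move as 1: from P120 to P140 in G93A, 2 were called higher and 3 lower (log2 fold changes -1.84 to 1.58). At P140, 3 were called higher and 0 lower in G93AKO than in G93A. The part of the number of detected genes and of these cells in the values of Tlr3, Tlr4, Tlr7 and Tlr13 was not tested. The LAG-3-sorted microglia also came from P140 SOD1G93A mice, and there Tlr13 averaged 217 CPM in the LAG-3-low and 256 CPM in the LAG-3-high fraction, beside 48.3 CPM in P140 G93A microglia of the stage table. Tlr3 averaged 58.3 and 50.1 CPM in the fractions, beside 17.6 CPM. These levels come from tables normalized separately, and the difference was not tested.

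The share of the summed level per kb that the surface members held gives the balance of the family within a library. WT libraries had 17.3% to 48.5%, the LAG-3-low fraction 56.1% to 59.9% and the LAG-3-high fraction 60.6% to 66.4%, with no overlap. In the stage table it was 52.05% to 60.2% in P120 G93A and 79.99% to 88.2% in P140 G93A libraries, and 53.5% to 60.8% and 56.4% to 74.5% in the P120 and P140 G93AKO libraries. P140 G93A libraries lay above every other library of the series. In cord it was 31.2% to 32.4% in G93A and 34.9% to 36.8% in G93ALAG3KO. Without Tlr2 the sorted groups overlapped: WT libraries held 3.24% to 36.04%, the low fraction 26.5% to 33.8% and the high fraction 29.3% to 35.8%, and the cord groups overlapped too, at 13.8% to 16.3% and 16.3% to 17.3%. Without it P140 G93A libraries held 49.2% to 63.5% and the other stage groups 28.1% to 38.4%. No test was made of this share, since the members were chosen with results in view.

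**Figure D4:**
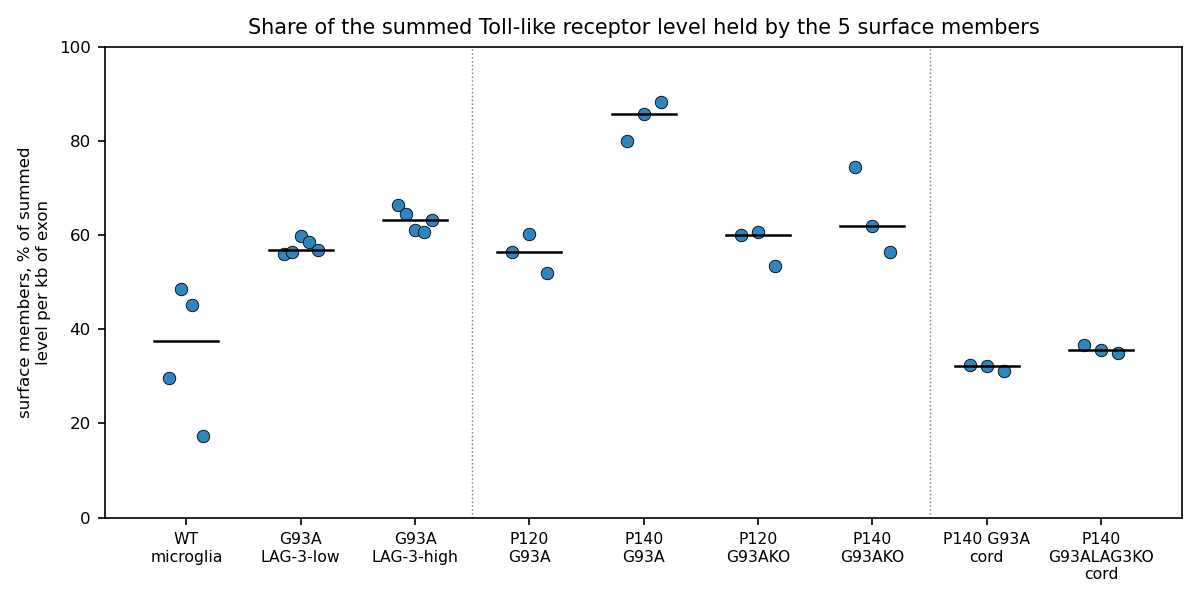
Percent of the summed Toll-like receptor level per kb of exon held by the 5 surface members, with 1 point per library and the groups of the 3 tables side by side. The P140 G93A microglia stand highest (79.99% to 88.2%) and the cord libraries lie between 31.2% and 36.8%.

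The third comparison asked what loss of LAG-3 did to the family in whole cord at P140. Lag3 averaged 59.7 CPM in G93A and 5.60 CPM in G93ALAG3KO cord. Here 6 of the 10 members were called lower in G93ALAG3KO cord, where 3.15% of genes were called lower and 7.52% either way: the surface members Tlr4 and Tlr5 and the endosomal Tlr7, Tlr8, Tlr9 and Tlr13. The other 4 had an adjusted p under 0.1 and a negative fold change within the minimum, and 23.9% of genes were lower at that threshold alone. In all 10 genes every G93ALAG3KO library lay below every G93A library, as it did for 26.1% of the genes tested. In bulk tissue, fewer cells of a type and less RNA per cell cannot be told apart.

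Tlr8 stood at 1.34, 1.03 and 1.28 CPM in G93A and at 0.0571, 0.276 and 0.0999 CPM in G93ALAG3KO cord (1, 7 and 2 counts), a log2 fold change of -2.93 (standard error 0.48, edgeR adjusted p = 0.00105). Tlr7 stood at 24.5, 19.2 and 24.8 CPM in G93A and at 10.9, 6.97 and 8.24 CPM in G93ALAG3KO cord, a log2 fold change of -1.40 (standard error 0.17, edgeR adjusted p = 0.000351). Both are RNA receptors, and in both the genotypes were far apart beside the spread between libraries. Tlr9 stood at 7.96, 5.97 and 7.12 CPM and at 2.23, 2.05 and 3.995 CPM, a log2 fold change of -1.35 (standard error 0.26, edgeR adjusted p = 0.00218). Tlr13 stood at 18.6, 14.3 and 21.96 CPM and at 8.11, 7.36 and 9.49 CPM, a log2 fold change of -1.14 (standard error 0.17, edgeR adjusted p = 0.000720).

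Among the surface members, Tlr4 stood at 6.65, 5.45 and 6.81 CPM in G93A and at 2.97, 2.40 and 2.25 CPM in G93ALAG3KO cord (log2 fold change -1.32, standard error 0.20, edgeR adjusted p = 0.000716). The flagellin receptor gene Tlr5 had 35, 25 and 40 counts in G93A and 12, 12 and 12 counts in G93ALAG3KO cord (log2 fold change -1.18, standard error 0.33, edgeR adjusted p = 0.0159). Tlr2 stood at 31.4, 26.3 and 33.7 CPM and at 22.3, 13.2 and 16.4 CPM (log2 fold change -0.82, standard error 0.18, edgeR adjusted p = 0.00487). Its partners Tlr1 and Tlr6 differed by -0.85 and -0.85, with edgeR adjusted p of 0.00719 and 0.0509. The endosomal Tlr3 stood at 48.6, 40.1 and 49.4 CPM and at 32.5, 18.4 and 21.2 CPM (log2 fold change -0.94, standard error 0.20, edgeR adjusted p = 0.00460). Tlr5 and Tlr13 did not pass the minimum fold change with transcript length and GC content corrected for (-0.94 and -0.88), nor did Tlr13 without G93A replicate 3 (-0.99), while without G93ALAG3KO replicate 1 Tlr2, Tlr3 and Tlr6 passed it (-1.05, -1.22 and -1.17), as did Tlr3 without G93A replicate 2 (-1.04) or without TMM factors (-1.09).

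**Figure D5:**
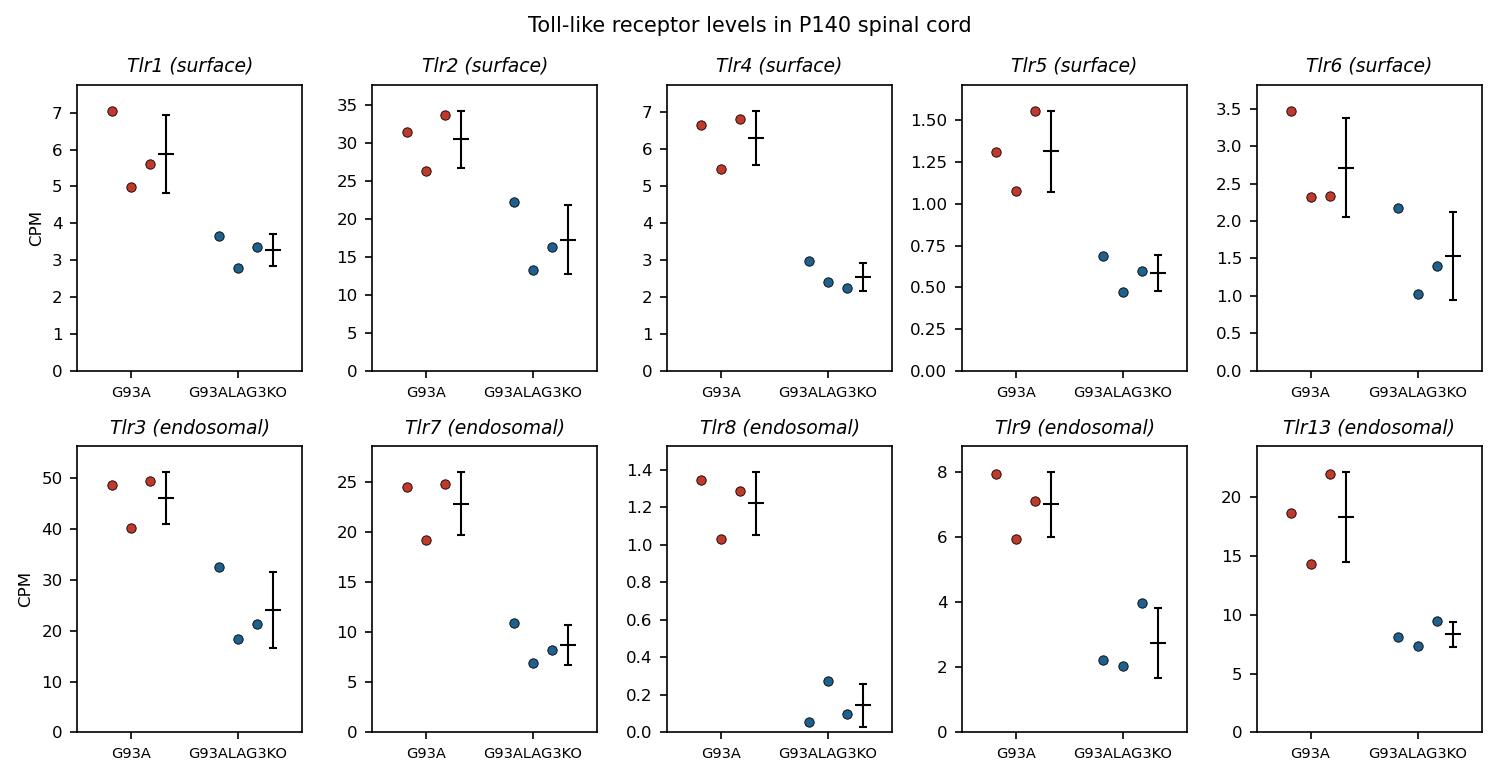
Level of each Toll-like receptor gene in CPM (linear axes from 0) in P140 spinal cord of G93A and G93ALAG3KO mice, with 1 point per library, the mean as a short bar and the SD as whiskers. In all 10 genes the 3 G93ALAG3KO libraries lie below the 3 G93A libraries.

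Cell type markers differed in the cord too. The 8 microglial markers summed to 1160 to 1475 CPM in G93A and 815 to 1105 CPM in G93ALAG3KO cord, and 1 of them, Ptprc, was called lower. Their log2 fold changes ran from -1.03 (Ptprc) and -0.89 (Itgam) to -0.04 (P2ry12) and 0.40 (Tmem119). The 5 astrocyte markers summed to 12750 to 14581 CPM in G93A and 7401 to 11925 CPM in G93ALAG3KO cord, and the 5 oligodendrocyte markers to 14860 to 16185 and 20984 to 29230 CPM. Relative to the mean log2 level of the microglial markers, which differed by -0.38, 3 of the 6 called members differed by more than 1 in size (Tlr8 -2.26, Tlr7 -1.06 and Tlr9 -1.04) and 3 by less (Tlr4 -0.95, Tlr13 -0.78 and Tlr5 -0.71). The other 4 members ran from -0.63 for Tlr3 to -0.49 for Tlr6, and of the 10 members the groups then overlapped in Tlr6 alone. The part of the other cell types in these values was not tested.

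The genes that work with the receptors took other courses. From P120 to P140 in G93A microglia, 4 of 6 co-receptors and accessory proteins rose, where 11.9% of all genes were called higher: Ly96, which encodes MD-2 (log2 fold change 1.70, edgeR adjusted p = 0.00722), Cd14, the lipopolysaccharide co-receptor (1.45, edgeR adjusted p = 0.00796), Ly86 (1.16) and Cd36 (1.13). Tlr4 was lower in the same libraries. Of 14 genes for trafficking and processing of the endosomal members 8 rose, among them the lysosomal protease gene Ctss (1.51, edgeR adjusted p = 0.00821), the ribonuclease genes Rnaset2a (1.43) and Rnaset2b (1.49) and the exonuclease gene Pld4 (1.11). Of 5 adaptors, Myd88 rose (1.17, edgeR adjusted p = 0.0270). Of 22 kinases, ubiquitin ligases and transcription factors 9 fell, where 15.5% of all genes were called lower, and 1 rose, with Irak1 (-1.87), Ikbkb (-1.34), Rela (-1.34) and Chuk (-0.83) among those that fell. Of 11 inhibitors 2 rose and 3 fell, against the same shares of all genes, among them Nrros (1.07) and Tnfaip3 (-2.13). Of 3 endogenous ligands tested 1 rose, Hmgb1 (1.13), and of 9 induced targets tested 5 rose, among them Tnf (2.33, edgeR adjusted p = 0.0240) and Ccl2 (2.01, edgeR adjusted p = 0.0140).

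The counts over all lists, here and below, also include a list of the other mouse genes Tlr11 and Tlr12. In G93A microglia 34 of 72 genes tested were called from P120 to P140, where 27.4% of all genes were called. Against WT, which shares its libraries between both comparisons, 21 of 70 were called in LAG-3-high and 18 in LAG-3-low microglia, near the shares of all genes given above. Of all genes, 12.1% passed as higher in LAG-3-high microglia and 14.9% as lower. In this fraction 5 of 14 trafficking and processing genes were higher, led by the lysosomal genes Pld3 (4.21, edgeR adjusted p = 1.36e-07) and Ctsb (3.29), and 0 were lower. Of the 22 kinases, ligases and transcription factors 5 were higher, among them Irf8 (1.44), and 2 lower, Nfkb1 (-1.62) and Tab2 (-2.15). Of 8 induced targets tested 3 were higher (Il1b, Cxcl10 and Ccl5) and 1 was lower (Il6). S100a8 and S100a9, which encode a TLR4 ligand abundant in neutrophils, were lower, as was Tirap (-1.33), and Sarm1 and Sigirr were higher. For LAG-3-low microglia these shares were 10.9% and 11%, and Pld3 (2.29) and Ctsb (2.08) were higher, and Ly96 (-2.01), Ly86 (-1.25), Rnaset2b (-1.35), Nfkb1 (-1.79) and Tab2 (-1.98) lower.

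Between the LAG-3-high and the LAG-3-low fraction 7 of 70 genes of the lists were called, where 3.49% of all genes were called. Of the 14 trafficking and processing genes 4 rose, where 0.818% of all genes were called higher: Pld3 (1.92, edgeR adjusted p = 6.79e-05), Ctsl (1.42), Ctsb (1.21) and Ctss (1.01). The adaptor gene Tirap fell (-1.45, edgeR adjusted p = 0.0995), as did S100a8 and S100a9, where 2.67% of all genes were called lower. At P140, 9 of 72 were called between the genotypes, near the share of all genes called there (10.2%). Here 4 of 22 kinases, ligases and transcription factors were higher in G93AKO than in G93A microglia, Chuk (0.87), Ikbkb (1.12), Irak2 (1.12) and Irak1 (1.39), as were 2 of 11 inhibitors, Tollip (1.21) and Cyld (1.25), beside 7.22% of all genes. Ly96 (-1.16, edgeR adjusted p = 0.0616), the ligand gene Hmgb1 (-0.69) and the target Ccl2 (-1.52, edgeR adjusted p = 0.0811) were lower, beside 3% of all genes. From P120 to P140 in G93AKO microglia, between the genotypes at P120 and for the interaction 0 genes of these lists were called. In the cord 0 genes of these lists were called, and Cd180, an accessory receptor, was close to the minimum fold change at -0.99 (edgeR adjusted p = 0.0119).

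Tlr3, Tlr4, Tlr7 and Tlr13 were picked because they were called in the 12 stage libraries, a choice that favours high correlations there. Over these libraries their Pearson r of log2 CPM was 0.909 (Tlr3 with Tlr7) to 0.939 (Tlr7 with Tlr13). Tlr9, also called between the stages in G93A, had r of 0.374 (with Tlr4) to 0.583 (with Tlr13) with them. The same 4 genes had r of -0.214 (Tlr3 with Tlr7) to 0.650 (Tlr4 with Tlr13) over the 14 LAG-3-sorted libraries. Between Tlr2 and Tlr13 r was -0.310 over the stage libraries and 0.723 over the LAG-3-sorted libraries. The genes most like Tlr13 over the stage libraries were Stat6 (r = 0.988), Adam17 (0.984) and Cep250 (0.982). Those most like Tlr7 there were Acss1 (0.983), Sowahc (0.978) and Atg2b (0.975). Over the 14 LAG-3-sorted libraries the genes most like Tlr2 included Il4i1 (0.987) and Lag3 (0.985). These correlations describe libraries that share their group differences and depth.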

How the data were processed

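Microglia were sorted by FACS as CD11b+/CD45int cells and their mRNA was amplified full-length (SMART-seq mRNA HT LP), while cord libraries used a directional kit. Per the study's methods, reads were trimmed (Trim Galore 0.6.7), quantified (Salmon 1.9.0, GRCm39) and imported (tximport, R 4.2.1), and the authors deposited estimated counts per Ensembl gene, not normalized. Here these were rounded and every table was given its own edgeR fit (version 4.0.16, R 4.3.3): filterByExpr, TMM factors and the quasi-likelihood test with robust dispersion. P-values were adjusted by Benjamini-Hochberg across all genes that passed the filter, namely 16508 (sorted fractions), 18669 (stages) and 17702 (cord). Identifiers without a name in GENCODE vM39 held 0.0145% to 0.0514% of the counts. The members and the gene lists were chosen with earlier results of these data known. All members are named, with up to 4 called genes of each list by smallest adjusted p (else the 1 with the smallest) and the 3 genes most like a member, of which 1 is not reported here. Alternatives were DESeq2 1.42.0, other scalings, filters, thresholds and covariates, fits of 2 groups, a length and GC correction and each library left out in turn. Floors of 3 counts cover counting error only. The fit was also run on simulated counts. Their dispersion was set far below the common dispersion of the LAG-3-sorted (0.691) and stage (0.603) tables, so that run does not bear on the microglial calls.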

Additional observations from a re-analysis of the deposited data

Results flagged for a closer look

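In 3 of 28 combinations of a member and a group of 4 or 5 libraries, 1 library stood apart by Dixon's ratio of its gap to the whole range. The combinations share the 14 LAG-3-sorted libraries and are not independent. For normally distributed values chance sets apart about 1 in 20 combinations. The 3 combinations below all hold libraries at 0 counts, so that rate does not apply to them. Tlr5 was at 13.3 CPM in WT replicate 2, with the next library at 2.03 CPM (ratio 0.848). Tlr9 was at 2.06 CPM in LAG-3-low replicate 1, with the next library at 0.0409 CPM (ratio 0.980). Tlr9 was at 2.73 CPM in LAG-3-high replicate 2, with the next library at 0.169 CPM (ratio 0.938).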

How the results depend on the processing

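The number of members called changed by more than 1.5 times in these cases. Between the 2 LAG-3 fractions it was 0 with edgeR, 1 with DESeq2 and 1 with no minimum fold change. Between the genotypes at P140 it was 4, with 2 at an adjusted p under 0.05 and 0 in the fit of the 2 groups only, and it ranged from 1 to 4 with 1 library left out. For the stages in G93A it was 5 and ranged from 3 to 6 with 1 library left out. For the interaction it was 0, with 2 by DESeq2 and 1 with no filter on low counts, and it ranged from 0 to 2 with 1 library left out. In the cord it was 6, with 10 at no minimum fold change, and it ranged from 5 to 9 with 1 library left out. No called member changed sign under any of these settings. The shift of the median log2 fold change of all genes was taken for the other scalings and the length and GC correction only. It reached 0.45 and -0.51. Libraries with the same replicate number correlated at -0.119 to 0.0674 in their deviations from the group means. Libraries with different numbers were not compared, so these values cannot show whether the LAG-3 fractions came from the same animals. In the main fit the fractions were unpaired. A block for the replicate number gave 3 members called between the genotypes at P140, 5 between the stages in G93A and 6 in the cord. Between the LAG-3 fractions it called no member, as in the main fit. The sign changes were all in members not called, and their cause was not tested. Without TMM factors the sign turned for LAG-3-high against LAG-3-low in Tlr4 (-0.28) and Tlr13 (-0.13), and for LAG-3-high against WT in Tlr4 (-0.16) and Tlr13 (-0.0138), and for LAG-3-low against WT in Tlr5 (-0.0652), and for stage in G93A in Tlr1 (-0.38), and for stage in G93AKO in Tlr1 (-0.17), Tlr3 (-0.17) and Tlr13 (-0.13), and for interaction in Tlr1 (0.22) and Tlr6 (0.00945). With the length and GC correction the sign turned for LAG-3-high against WT in Tlr6 (-0.0862), Tlr7 (-0.24) and Tlr13 (-0.14), and for LAG-3-low against WT in Tlr4 (-0.00436), Tlr5 (-0.0961) and Tlr13 (-0.40), and for genotype at P140 in Tlr1 (-0.13), Tlr2 (-0.54) and Tlr6 (-0.65), and for stage in G93A in Tlr6 (1.06), and for stage in G93AKO in Tlr6 (0.25), and for interaction in Tlr2 (-0.59). With no filter the sign turned for LAG-3-low against WT in Tlr6 (0.0498). With the replicate block the sign turned for LAG-3-low against WT in Tlr6 (0.0199), and for genotype at P120 in Tlr8 (2.10), and for genotype at P140 in Tlr6 (-0.0191). With DESeq2 the sign turned for genotype at P140 in Tlr1 (-0.0179), Tlr2 (-0.0217) and Tlr6 (-0.0647), and for stage in G93A in Tlr6 (0.0424), and for interaction in Tlr2 (-0.0692). With RLE size factors the sign turned for genotype at P140 in Tlr1 (-0.0224), Tlr2 (-0.0258) and Tlr6 (-0.0685), and for stage in G93A in Tlr6 (0.0455), and for interaction in Tlr2 (-0.0736). Leaving out 1 library at a time turned the sign with log2 fold changes ranging for LAG-3-high against LAG-3-low from -0.00356 to 0.19 in Tlr4, and for LAG-3-high against WT from -0.0833 to 1.21 in Tlr4, and for LAG-3-low against WT from -0.82 to 2.55 in Tlr5, from -0.45 to 0.17 in Tlr6, from -0.19 to 1.11 in Tlr4, from -0.0915 to 0.34 in Tlr13, and for genotype at P120 from -0.0404 to 0.50 in Tlr6, from -5.52 to 7.03 in Tlr8, from -0.10 to 0.15 in Tlr2, from -0.0447 to 0.29 in Tlr1, and for genotype at P140 from -0.14 to 0.28 in Tlr1, from -0.20 to 0.30 in Tlr2, from -0.39 to 0.19 in Tlr6, and for stage in G93A from -7.94 to 6.45 in Tlr8, from -0.24 to 0.30 in Tlr6, from -0.10 to 0.24 in Tlr1, and for stage in G93AKO from -0.11 to 0.27 in Tlr1, from -0.00529 to 0.17 in Tlr3, from -0.11 to 0.36 in Tlr13, and for interaction from -0.26 to 0.17 in Tlr1, from -0.53 to 0.0521 in Tlr6, from -3.88 to 10.51 in Tlr8, from -0.22 to 0.27 in Tlr2, from -0.20 to 2.52 in Tlr5. Of the 26 microglial libraries, 13 had 0 counts of Tlr5, 11 of Tlr8 and 9 of Tlr9, which limits what can be said of these genes. The deepest library, P120 G93A replicate 2 (49512341 counts), had 0 counts of Tlr8, and P140 G93AKO replicate 3 (26555767 counts) had 225. How the 0 counts relate to depth was not tested.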
